A study of Mus musculus with 2 samples.

Results

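Cycling T cells were taken from single-cell libraries labelled as γδ T cells, 1 of normal colon (IEL) and 1 of tumor tissue of the colon (TIL). The mice were C57BL/6J and between 18 and 20 weeks old. The cells were chosen by their own transcript counts: a barcode was counted as a cycling T cell when it held at least 500 genes, at least 1000 unique molecular identifiers (UMIs, counts of single captured transcripts) and at most 10% mitochondrial UMIs, at least 1 UMI in 4 or more of the 7 genes Mki67, Top2a, Birc5, Cdk1, Ube2c, Ccnb2 and Pclaf, and at least 1 UMI of Trdc or Cd3e. This rule found 210 cells, 78 in IEL and 132 in TIL, among 21535 cells that passed the filter and 22643 barcodes deposited. The other cells with a UMI of Trdc or Cd3e, 9002 in IEL and 12139 in TIL, are called the other T cells. Tissue was digested and cells were collected between 40% and 70% Percoll, and the labels' protocol names tumor tissue for both samples, no sort or gate, and no number of animals. Transcript 3′ ends were read with 10x Genomics chemistry (v3). With 1 library per group there is no replicate check and no p-value, so each difference is between these libraries. Values in brackets are 95% intervals for counting error alone.

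A dividing cell first copies its DNA in S phase, with a replication machinery of helicase, clamp and polymerase subunits and enzymes that make deoxynucleotides. It then builds the spindle and separates its chromosomes in G2 and mitosis, under the kinases Cdk1 and Aurora B and the anaphase promoting complex. In the mouse gut, γδ T cells include intraepithelial lymphocytes that express Cd8a, granzymes and the chemokine Ccl5, and a lineage that secretes interleukin 17 and carries the scavenger receptor Cd163l1 (Scart1).

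The promoters of several genes of the rule show sequence elements known from cell-cycle genes, and 4 of them are printed because these transcripts chose the cells. They are RefSeq sequences of the GRCm38.p6 build, 5′ to 3′ on the strand of the gene. Capitals mark the cell-cycle homology region (CHR, TTTGAA or TTCGAA on either strand, so also TTCAAA) and the CCAAT box (CCAAT, or ATTGG on the other strand). Mcm6, a subunit of the replicative helicase, is shown for the other kind of element, with capitals for E2F sites (TTTCCCGC, TTTCGCGC, TTTGCCGC or TTTGGCGC on either strand, of which 2 overlap here). The windows are chr10:69352903-69353012 on the minus strand for Cdk1, chr9:70421545-70421654 on the minus strand for Ccnb2, chr2:164769829-164769938 on the plus strand for Ube2c, chr11:99024180-99024289 on the minus strand for Top2a and chr1:128359696-128359820 on the minus strand for Mcm6.
Cdk1: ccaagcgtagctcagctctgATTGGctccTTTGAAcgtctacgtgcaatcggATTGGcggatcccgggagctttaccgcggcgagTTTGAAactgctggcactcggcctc
Ccnb2: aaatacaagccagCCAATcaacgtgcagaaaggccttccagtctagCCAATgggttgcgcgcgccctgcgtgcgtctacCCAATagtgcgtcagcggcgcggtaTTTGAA
Ube2c: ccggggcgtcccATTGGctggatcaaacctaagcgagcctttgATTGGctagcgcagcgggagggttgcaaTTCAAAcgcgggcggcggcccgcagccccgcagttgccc
Top2a: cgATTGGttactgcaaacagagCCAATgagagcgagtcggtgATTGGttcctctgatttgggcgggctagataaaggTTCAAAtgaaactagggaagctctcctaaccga
Mcm6: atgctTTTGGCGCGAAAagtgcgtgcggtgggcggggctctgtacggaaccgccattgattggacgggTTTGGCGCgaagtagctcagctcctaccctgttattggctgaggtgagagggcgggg
Over the 300 bases given for each promoter, a CHR stood in 5 of the 7 rule genes, against 19.4% of 27025 promoters. Of the genes listed for G2 and mitosis, outside the rule, 57 had a promoter sequence and 41 of these held a CHR (71.9%), while it stood in 12 of 42 promoters of the S phase lists (28.6%). An E2F site stood in 14 of 42 S phase promoters (33.3%), in 2 of 57 of the G2 and mitosis lists (3.51%) and in 2.32% of all promoters. A match is a description of these letters and does not show that a factor binds there.

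**Figure D1:**
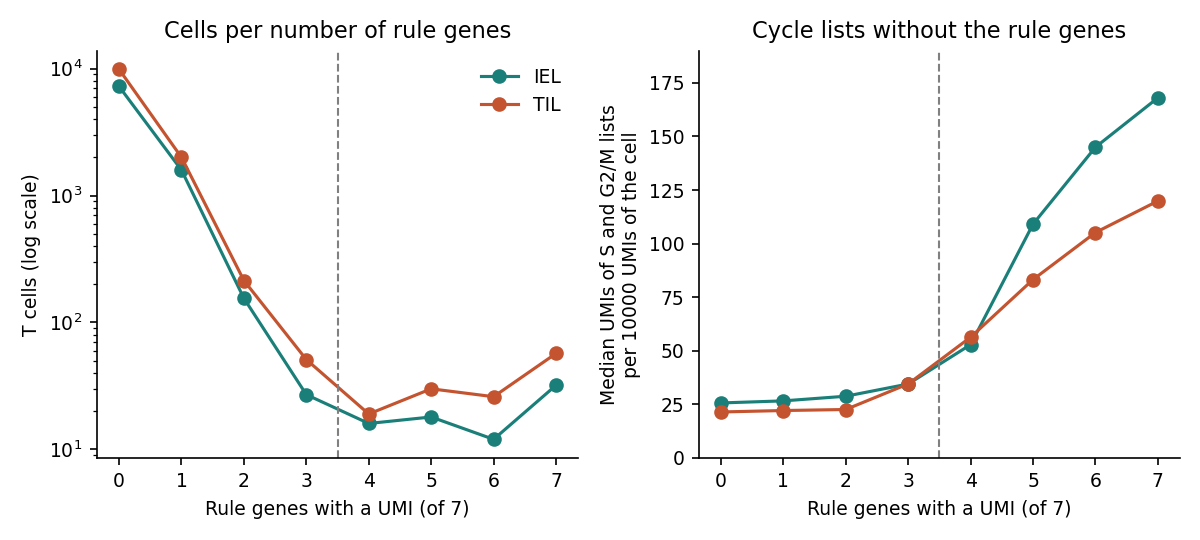
Left, T cells of each library (log scale) by the number of rule genes with a UMI; right, the median UMIs of the S and G2/M gene lists, which leave out the rule genes, per 10000 UMIs of the cell. The dashed line marks the threshold of 4 genes, above which the median rises from 52.8 to 168 in IEL and from 56.3 to 120 in TIL.

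The cycling cells were 0.859% of IEL T cells (0.680 to 1.07) and 1.08% of TIL T cells (0.901 to 1.27). They were deep cells, with a median of 17340 UMIs in IEL and 16514.5 in TIL, against 6851 and 6455 in the other T cells, and deeper cells reach a UMI of more genes. When every cell was thinned to 2000 UMIs before the rule was applied, 26 of 9023 IEL T cells (0.288%, 0.188 to 0.422) and 46 of 12168 TIL T cells (0.378%, 0.277 to 0.504) met it. Just inside the threshold, at 4 genes, lay 16 IEL and 19 TIL cells, with a median of 52.8 and 56.3 UMIs of the S and G2/M lists per 10000. Just outside, at 3 genes, lay 27 and 51 cells, with medians of 34.5 and 34.5. All 7 genes were found in 32 IEL and 57 TIL cells. A further 2 TIL barcodes met the gene count without a UMI of Trdc or Cd3e, and 33 barcode sequences occurred in both libraries, none of them of a cycling cell.

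The 7 rule genes chose the cells, so their values are a description. Mki67, the nuclear protein known as Ki-67, had a UMI in 98.7% of IEL and 92.4% of TIL cycling cells, with a median of 7 and 5 UMIs per cell. Birc5, the survivin subunit of the chromosomal passenger complex, had one in 91.0% and 97.7%. Pclaf, a partner of the replication clamp, had one in 78.2% and 92.4%, and Ube2c, the ubiquitin-conjugating enzyme of the anaphase promoting complex, in 76.9% and 79.5%. Cdk1 itself was the least often found, in 67.9% and 68.9%. In the other T cells these shares ran from 0.289% for Ccnb2 in IEL to 13.4% for Top2a in IEL.

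The label γδ was checked with receptor constant genes. Trdc, the δ chain constant gene, had a UMI in 77 of 78 IEL and 132 of 132 TIL cycling cells, and its level was 681 UMIs per 1000000 (CPM) in IEL and 3382 in TIL. UMIs of Trac, the constant gene of the α chain of αβ T cells, were also found in 78 of 78 IEL and 92 of 132 TIL cycling cells, at 438 and 91.8 CPM. Cells thinned to 2000 UMIs allow a comparison with the shallower other T cells: Trac then stood in 62.8% of IEL cycling cells (51.1 to 73.5) against 43.1% of other IEL T cells, and in 18.2% (12.0 to 25.8) against 15.2% in TIL. Of the cycling cells, 66.7% in IEL (55.1 to 76.9) and 97.7% in TIL (93.5 to 99.5) held more Trdc than Trac UMIs, against 77.0% and 97.7% of the other T cells. Tcrg-C1, a γ chain constant gene, was at 369 and 621 CPM in the cycling cells of IEL and TIL, with a UMI in 72 of 78 and 126 of 132. Trbc2, a β chain constant gene, was at 1021 and 830 CPM, with a UMI in 78 of 78 and 129 of 132. After thinning, Trbc2 stood in 83.3% of cycling and 82.0% of other T cells in IEL, and in 75% and 74.8% in TIL. No cycling cell had a UMI of Cd4 or Foxp3, which for 78 IEL cells allows a share of cells with a UMI of up to 3.85% and for 132 TIL cells up to 2.27% (3 cells of the total, which limits capture and not expression). Cd8b1, the β chain of the conventional CD8 coreceptor, was found in 5 IEL cycling cells (6.41%) against 6.68% of the other IEL T cells, and in none of TIL. Of the 30 thinned TIL background droplets described with the lineage markers, 6.67% held Trac, and IEL had no such droplets, so free RNA could not be gauged there. A rule that requires Trdc or a γ constant gene and no Trac leaves 0 IEL and 40 TIL cycling cells. For this reason the members are called cycling T cells rather than γδ T cells.

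**Figure D2:**
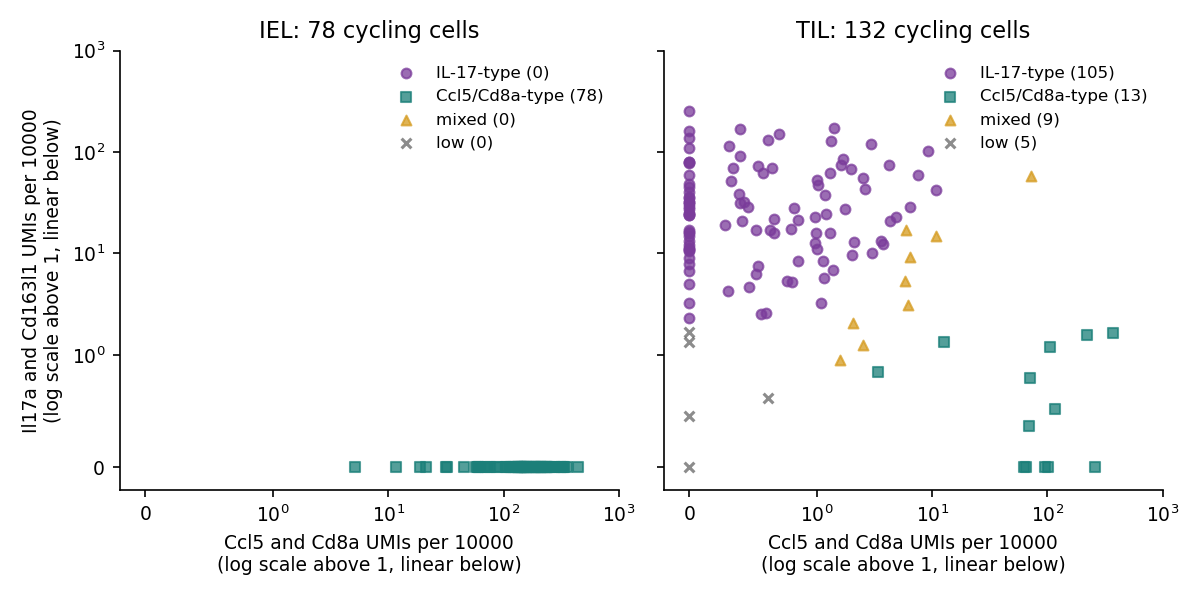
Each point is 1 cycling cell, with its UMIs of Ccl5 and Cd8a (x axis) and of Il17a and Cd163l1 (y axis) per 10000 UMIs, both on a log scale above 1 and linear below; colours and shapes give the class. All 78 IEL cells lie on the bottom line at 0 UMIs of Il17a and Cd163l1, while 105 of 132 TIL cells lie in the upper left.

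The cycling cells of the libraries carried different lineage markers. The 4 marker genes lie on GRCm38 at chr1:20730905-20734496 (Il17a, plus strand), chr7:140218267-140231145 (Cd163l1, plus strand), chr11:83525778-83530518 (Ccl5, minus strand) and chr6:71373427-71379173 (Cd8a, plus strand). Il17a, the cytokine gene of the interleukin 17 lineage, had no UMI in the 78 IEL cycling cells, which allows a share of cells with a UMI of up to 3.85%, and a UMI in 0.833% of the other IEL T cells. In TIL it had a UMI in 124 of 132 cycling cells (93.9%, 88.4 to 97.3), with a median of 16 and a maximum of 407 UMIs. Cd163l1 gave the same split, with 0 of 78 IEL and 114 of 132 TIL cells (86.4%, 79.3 to 91.7). Ccl5, a chemokine of cytotoxic and tissue-resident lymphocytes, was found in 78 of 78 IEL cells, with a median of 232.5 UMIs, and in 89 of 132 TIL cells (67.4%), with a median of 1. Cd8a, the CD8 α chain, was found in 69 of 78 cells of IEL (88.5%, 79.2 to 94.6) and in 16 of 132 of TIL (12.1%, 7.09 to 18.9).

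At equal depth these shares lay close to those of the other T cells of the same library for most markers. After thinning to 2000 UMIs, Il17a stood in 68.2% of TIL cycling cells (59.5 to 76.0) and 64.6% of the other T cells, Cd163l1 in 52.3% (43.4 to 61.0) and 56.4%, and Ccl5 in 26.5% (19.2 to 34.9) and 26.4%. Cd8a stood in 6.82% of TIL cycling cells (3.16 to 12.5) and 5.59% of the others, and in 56.4% (44.7 to 67.6) and 55.2% in IEL. Free RNA was gauged in 38 TIL droplets with no UMI of Trdc, Cd3e, Cd3g or Cd3d and at least 3 myeloid markers, with a median of 4894 UMIs. Of the 30 that could be thinned, 26.7% held Il17a (12.3 to 45.9), 3.33% held Ccl5 and none held Cd163l1 or Cd8a, which allows a share of droplets with a UMI of up to 10%. A single Il17a UMI is therefore weak evidence of the lineage in TIL, and classes were set on several UMIs.

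A cell was called IL-17-type when it held at least 3 UMIs of Il17a and Cd163l1 together and at least 3 times those of Ccl5 and Cd8a, and Ccl5/Cd8a-type in the reverse case. All 78 IEL cycling cells were Ccl5/Cd8a-type, as were 8913 of the 9002 other IEL T cells. In TIL, 105 of 132 cycling cells were IL-17-type (79.5%, 71.7 to 86.1) and 13 were Ccl5/Cd8a-type (9.85%, 5.35 to 16.3), against 71.1% and 12.5% of the shallower other T cells. At equal depth, thinned to 2000 UMIs, 56.1% of cycling cells (47.2 to 64.7) and 53.2% of the others were IL-17-type, and 8.33% (4.23 to 14.4) and 11.6% Ccl5/Cd8a-type. On full counts another 9 were mixed, with at least 3 UMIs of the 4 genes and neither pair leading 3 times, and 5 held fewer than 3 UMIs of the 4 genes. The 105 IL-17-type cells had a median of 24.5 UMIs of Il17a and Cd163l1 per 10000, from 2.32 to 252, and 38 of them had no UMI of Ccl5 or Cd8a. The 13 Ccl5/Cd8a-type cells had a median of 95.9 UMIs of Ccl5 and Cd8a per 10000, against 154 in the 78 IEL cells. After thinning, 1 TIL cycling cell held both Il17a and Cd8a (0.758%).

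Both classes of TIL held cycling cells. They were 105 of 8732 IL-17-type T cells (1.20%, 0.985 to 1.45) and 13 of 1535 Ccl5/Cd8a-type T cells (0.847%, 0.452 to 1.44), and the intervals overlap. With the rule applied to thinned cells and the classes kept from full counts, they were 36 of 8678 (0.415%, 0.291 to 0.574) and 6 of 1525 cells (0.393%, 0.145 to 0.854). In IEL, 78 of 8991 Ccl5/Cd8a-type T cells were cycling (0.868%, 0.686 to 1.08), and none of 28 IL-17-type T cells, which by 3 cells of the total allows a share of up to 10.7%.

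**Figure D3:**
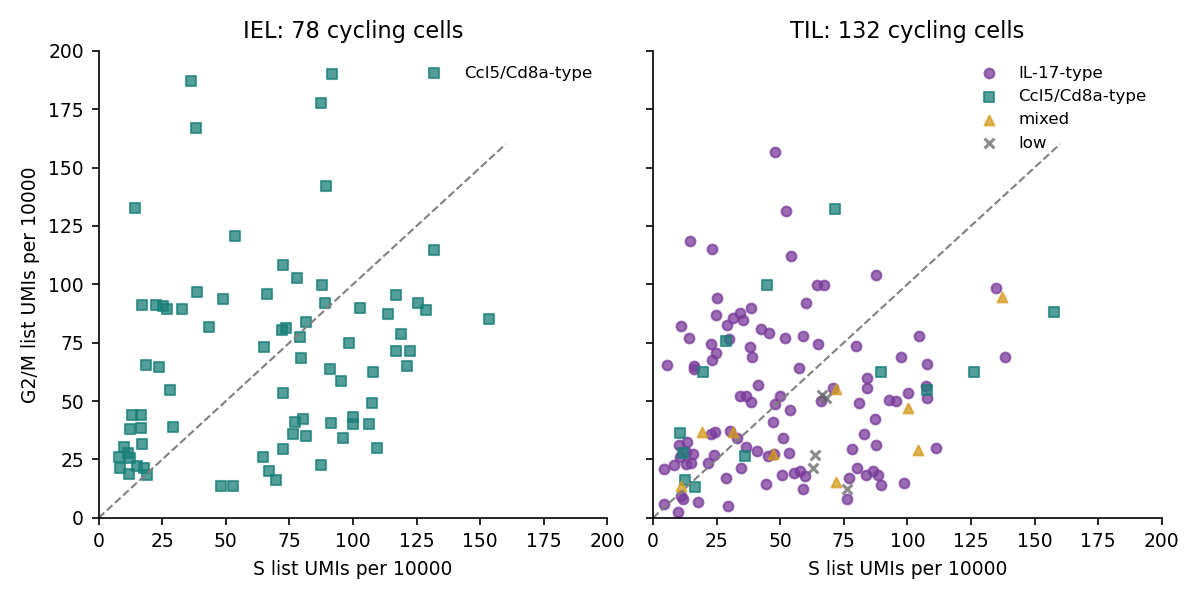
Each point is 1 cycling cell, with its UMIs of the S lists (x axis) and G2/M lists (y axis) per 10000 UMIs, as deposited and without thinning; the dashed line marks equal sums. In both libraries cells lie on both sides of the line, 41 of 78 above it in IEL and 65 of 132 in TIL.

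Among the cells that the rule chose, S phase UMIs led in some and G2/M UMIs in others, in both libraries. The rule chose cells by cycle genes, which can shape this balance, and its part was not tested. Position was read from 51 S phase genes and 66 genes of G2 and mitosis that the rule had not used, in cells thinned to 2000 UMIs. The median share of G2/M UMIs was 53.0% in IEL (quartiles 37.8 and 65.7) and 51.0% in TIL (33.1 and 65.6). G2/M UMIs led in 41 of 78 cells of IEL (52.6%, 40.9 to 64.0) and in 66 of 132 of TIL (50%, 41.2 to 58.8), and 11 cells in each library lay between 45% and 55%. Each thinned cell held few of these UMIs, with a median of 25 in IEL and 21 in TIL. The 50% mark was not calibrated. In thinned other T cells with such UMIs, the median share was 40% in both libraries. There G2/M led in 27.9% of IEL and 28.0% of TIL cells, with a median of 5 and 4 such UMIs per cell. In the TIL classes, G2/M led in 55 of 105 IL-17-type cells (52.4%, 42.4 to 62.2) and in 10 of 13 Ccl5/Cd8a-type cells (76.9%, 46.2 to 94.96). On full counts these were 55 of 105 and 7 of 13 (53.8%, 25.1 to 80.8), and the intervals of the classes overlap with and without thinning. Free RNA enters such calls too, and its part was not tested.

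Genes around the lists were read in S-leading and G2/M-leading cells too. The cells were split by the lead of S or G2/M UMIs, without thinning, so the list genes only describe the split. Ube2c, a gene of the rule, reached 674 CPM in the G2/M-leading and 102 CPM in the S-leading cells of IEL, and 768 and 131 CPM in TIL. Outside the 2 sets of lists, Ccne1, the cyclin of entry into S phase, was lower in the G2/M-leading cells of IEL, at 7.53 against 58.7 CPM. E2f1, the S phase transcription factor, was lower in both, at 18.1 against 137 CPM in IEL and 11.6 against 99.6 CPM in TIL. Cdc25b, the phosphatase that activates Cdk1, was higher, at 67.8 against 11.5 CPM in IEL and 109 against 20.5 CPM in TIL. Ccne1, E2f1 and Cdc25b each reached 50 CPM in 1 set of cells alone, so the floor fixed the direction of these values. Of all genes with at least 50 CPM in either set of cells, 2.28% were at least 2-fold higher and 3.05% lower in the G2/M-leading cells of IEL, together 5.33%, and 2.41% and 2.12% in TIL, together 4.53%. Gzmc in TIL also stood apart, at 306 against 7.33 CPM, but 1 cell held 80.1% of its UMIs, and Il17f, at 166 against 8.06 CPM, had 49.7% in 1 cell.

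**Figure D4:**
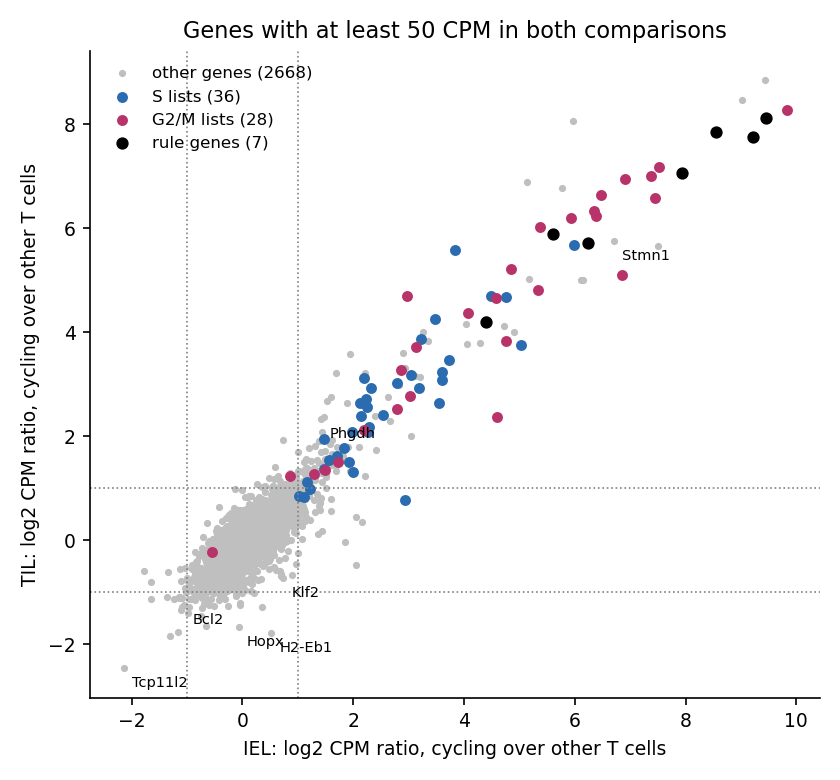
Each point is 1 of 2739 genes with at least 50 CPM in either group of each library, with the log2 CPM ratio of cycling over other T cells in IEL (x axis) and TIL (y axis); dotted lines mark 2-fold. The S, G2/M and rule genes lie mostly in the upper right, and Tcp11l2 lies lowest in TIL, at -2.15 and -2.47.

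Cycling and other T cells of a library differ in what the rule used, so their comparison is given as a description of the cells. Of 3462 genes with at least 50 CPM in either group, 307 were at least 2-fold higher (8.87%) and 43 lower (1.24%) in the cycling cells of IEL, together 10.1%. In TIL, 215 of 3238 genes were higher (6.64%) and 95 lower (2.93%), together 9.57%. The lists shared 168 higher genes, which is 54.7% of the IEL and 78.1% of the TIL list, and 14 lower genes, which is 32.6% and 14.7%. Of the 168, 86 belonged to the cell-cycle lists.

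Of 28 helicase, clamp and fork genes, 23 in IEL and 18 in TIL reached 50 CPM, 22 and 15 of them through the cycling cells alone, so the floor fixed the direction of most. Mcm5, a helicase subunit, was at 197 CPM in cycling and 16.3 CPM in other T cells of IEL, and at 132 and 14.0 CPM in TIL. Rrm2, the subunit of ribonucleotide reductase that limits deoxynucleotide supply, was at 186 and 2.91 CPM in IEL and at 166 and 3.26 CPM in TIL. Uhrf1, which guides maintenance of DNA methylation, was at 92.5 and 2.84 CPM in IEL and 90.2 and 6.72 CPM in TIL. Of the nucleotide synthesis genes, Tyms, thymidylate synthase, was at 195 and 17.5 CPM in IEL and 136 and 7.14 CPM in TIL. Pcna, the replication clamp, was also held by the other T cells, at 337 and 104 CPM in IEL and 300.4 and 98.3 CPM in TIL.

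Of 28 spindle and kinesin genes, 19 in IEL and 10 in TIL reached 50 CPM, all of them through the cycling cells alone, so their direction was set by that floor. Hmmr, a spindle protein, was at 108 and 0.12 CPM in IEL and at 58.4 and 0.19 CPM in TIL, and Ccna2, cyclin A2, at 145 and 0.21 CPM and at 102 and 0.22 CPM. Cenpf, a kinetochore protein, was at 256 and 3.15 CPM in IEL and 143 and 1.76 CPM in TIL. Stmn1, the microtubule regulator stathmin, was abundant, at 1408 and 13.5 CPM in IEL and 1275 and 23.5 CPM in TIL, with a UMI in 78 of 78 and 131 of 132 cycling cells. Pttg1, the securin that holds back separase, lay the other way, at 104 CPM in cycling and 151 CPM in other T cells of IEL and at 52.4 and 61.1 CPM in TIL.

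Regulators and biosynthesis genes were mixed. Foxm1, the transcription factor of G2/M genes, was at 30.8 and 0.55 CPM in IEL and 25.0 and 2.24 CPM in TIL, and Mybl2, which acts with it, at 37.4 and 0.52 CPM and at 21.3 and 0.54 CPM. Among the D-type cyclins, which start the cycle, Ccnd2 was at 322 CPM in cycling and 567 CPM in other T cells of IEL and at 181 and 345 CPM in TIL, while their partner Cdk4 was at 166 and 83.0 CPM and at 141 and 43.6 CPM. Phgdh, the entry enzyme of serine synthesis, was at 128 and 47.7 CPM in IEL and 88.6 and 17.7 CPM in TIL. None of 20 oxidative phosphorylation genes passed 2-fold in either library, beside 10.1% of all genes in IEL and 9.57% in TIL. Their median log2 ratios were 0.52 in IEL and 0.42 in TIL.

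Of 13 inhibitors of the cycle, 11 in IEL and 5 in TIL reached 50 CPM, 9 and 1 of them through the cycling cells alone. For these the floor fixed the direction. Of the 2 in IEL and 3 in TIL that reached it in both groups, none was 2-fold higher and 1 in IEL was lower. Of all genes with 50 CPM in either group, 8.87% were higher and 1.24% lower in IEL, and 6.64% and 2.93% in TIL. Cdkn3, a phosphatase of Cdk1, was higher, at 83.7 against 0.46 CPM in IEL and 54.8 against 1.09 CPM in TIL. Cdkn2a and Cdkn2c, which inhibit Cdk4 and Cdk6, were higher in IEL, with log2 ratios of 3.06 and 1.75. In TIL neither reached 50 CPM, and Cdkn2a was at 39.1 against 11.8 CPM and Cdkn2c at 47.5 against 17.1 CPM. Cdkn1a, the p21 inhibitor, was at 115 against 31.9 CPM in IEL and at 169 against 173 CPM in TIL. Cdkn1b, the p27 inhibitor of resting cells, had ratios of -1.04 in IEL and -0.93 in TIL.

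The 14 genes lower in the cycling cells of both libraries were mostly lower as a share of UMIs, and Tcp11l2 and Kdm7a were the 2 that were lower in UMIs per cell in both. The cycling cells held 2.34 times the UMIs of other T cells in IEL and 2.53 times in TIL on average, so a log2 CPM ratio of -1.22 or -1.34 stands for equal UMIs per cell. Bcl2, the survival factor, was at 199.7 against 413 CPM in IEL and 30.2 against 71.4 CPM in TIL, which is 3.49 against 3.09 and 0.57 against 0.53 UMIs per cell. Tcp11l2 was lower on both scales, at 35.2 against 156 CPM in IEL and 17.3 against 95.7 CPM in TIL, or 0.62 against 1.17 and 0.33 against 0.71 UMIs per cell. The transcription factor Satb1 was at 34.5 against 76.3 CPM in IEL and 188 against 409 CPM in TIL. Tcp11l2 reached 50 CPM through the other T cells alone in both libraries, as did Bcl2 in TIL and Satb1 in IEL. There the floor fixed the direction. None of the quiescence genes with enough counts, 10 in IEL and 9 in TIL, was 2-fold lower, with medians of -0.45 and -0.61. Of all genes, only 1.24% in IEL and 2.93% in TIL were lower. A list this short can hold none at such shares, so the count says little about these genes.

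In TIL, 2 of 14 genes of the interleukin 17 list and 2 of 10 cytokine receptor genes that reached 50 CPM were at least 2-fold lower in the cycling cells, beside 2.93% of all genes, and none was higher. The genes named next were picked for their size or role, and Il22 and Hopx belong to neither list. Il7r, the interleukin 7 receptor, was at 374 against 989 CPM and at 7.04 against 7.35 UMIs per cell. Areg, the growth factor amphiregulin, was at 2264 against 5635 CPM, or 42.6 against 41.9 UMIs per cell. Il17a itself was at 2749 (2684 to 2815) against 4403 CPM (4389 to 4417), with 51.7 against 32.7 UMIs per cell. Il22, an epithelial repair cytokine, was lower on both scales, at 4.03 against 59.8 CPM and 0.08 against 0.44 UMIs per cell. It reached 50 CPM through the other T cells alone, so the floor fixed its direction. Among IL-17-type cells alone, a part of the same cells, Il7r was at 435 against 1085 CPM and Areg at 2599 against 6890.1 CPM. Il22 was at 4.07 against 78.7 CPM there. Hopx, a homeobox cofactor, was at 194 against 617 CPM in TIL and at 214 against 224 CPM in IEL.

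**Figure D5:**
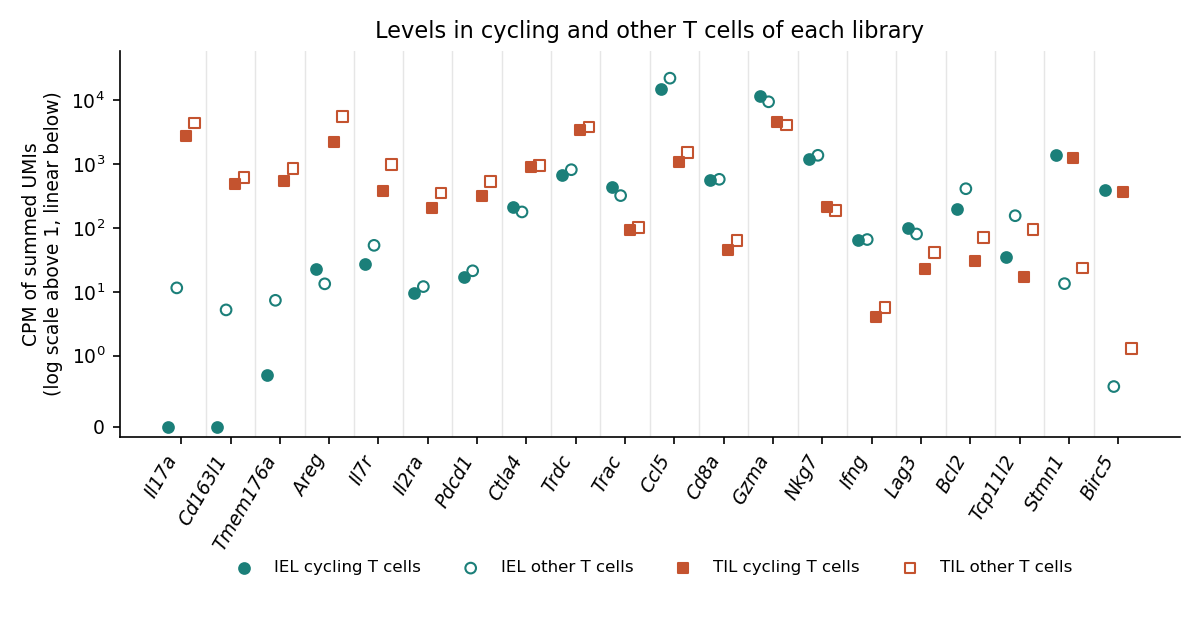
CPM of summed UMIs of 20 genes (log scale above 1, linear below) in cycling T cells (filled) and other T cells (open) of IEL (circles) and TIL (squares). The first genes lie higher in TIL and Ccl5, Cd8a, Gzma, Nkg7 and Ifng lie higher in IEL, in cycling and other cells, while Stmn1 and Birc5 separate cycling from other cells.

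Between the libraries, the cycling cells differed in lineage genes. Of 3539 genes with at least 50 CPM in either group, 289 were at least 2-fold higher (8.17%) and 462 lower (13.1%) in TIL, against 13.2% and 12% in the other T cells. Of 20 genes of the interleukin 17 list, 14 reached 50 CPM, 13 of them through TIL alone, so the floor fixed their direction. Il17a was at 2749 CPM in TIL and 0 in IEL, at least 10.29 higher on the log2 scale against a floor of 3 UMIs. Cd163l1 was at 484 and 0 CPM, at least 7.78 higher. Tmem176a, a membrane protein, was at 553 against 0.73 CPM, Blk, a B lymphoid kinase also found in these γδ T cells, at 203 against 0 CPM, and Maf, a transcription factor of the lineage, at 163 against 1.47 CPM. UMIs of Trdv4, a δ variable gene, were found in 100 of 132 cycling cells of TIL and 2 of 78 of IEL. Areg was at 2264 against 22.8 CPM in IEL, where 1 cell held 74.2% of its UMIs.

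Of 27 cytotoxic and intraepithelial genes, 24 reached 50 CPM, 9 of them through IEL alone and 2 through TIL alone. Of the 13 that did so in both libraries, 11 were at least 2-fold lower in TIL and none higher. Of all genes with 50 CPM in either library, 13.1% were at least 2-fold lower and 8.17% higher. The cycling cells held Ccl5 at 14988 CPM (IEL) and 1073 CPM (TIL), and Cd8a at 559 and 45.9 CPM. Nkg7, a cytotoxic granule protein, was at 1195 and 213 CPM. Tbx21, the T-bet factor, was at 62.4 and 5.64 CPM, and Itgae, the integrin that binds epithelium, at 255 and 76.5 CPM. Ifng was at 63.9 and 4.03 CPM, with a UMI in 36 of 78 and 3 of 132 cells, and 60% of the TIL UMIs came from 1 cell. Summed granzyme levels were 3129 and 1962 CPM for Gzmb and 11938 and 4585 CPM for Gzma. Gzma was uneven among the TIL cells, with a median of 2 UMIs per cell and a maximum of 1393, against a median of 195 in IEL, and 4543 of its 11386 TIL UMIs lay in the 13 Ccl5/Cd8a-type cells. Gzmc was at 9.55 and 142 CPM, and without the top cell of each library its ratio moved from 3.89 to 2.08, and without cells above the 99th percentile of UMIs to 0.98. Cd8a, Tbx21 and Ifng reached 50 CPM through IEL alone and Gzmc through TIL alone, so the floor fixed their direction.

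Of 17 cytokine receptor genes, 11 reached 50 CPM, 4 of them through TIL alone and 1 through IEL alone. Of the 6 that did so in both, 1 was 2-fold lower in TIL and none higher. Of all genes that reached 50 CPM in either library, 13.1% were lower and 8.17% higher. Of 11 inhibitory receptor genes, 7 reached 50 CPM, 2 through TIL alone and 3 through IEL alone. Of the 2 that did so in both, 1 was higher and 1 lower. Il1r1 and Il18r1, receptors for the interleukins 1 and 18, were at 83.0 and 64.4 CPM in TIL and at 0 and 0.73 CPM in IEL. Il2ra, the high affinity chain for interleukin 2, was at 209.8 against 9.55 CPM and Il7r at 374 against 27.2 CPM. Pdcd1, which encodes PD-1, was at 322 against 16.9 CPM, Ctla4 at 900.1 against 217 CPM, and Lag3 at 22.6 against 99.9 CPM. Of the genes named here, Ctla4 alone reached 50 CPM in both libraries, so the floor fixed the direction of the others. After thinning, Pdcd1 stood in 42.4% of TIL cycling cells (33.9 to 51.3) against 56.7% of other T cells and 3.33% of the 30 background droplets, and at least 2 of the 5 receptors Pdcd1, Havcr2, Lag3, Tigit and Ctla4 in 39.4% (31.0 to 48.3) against 50.5%. In IEL the share with at least 2 was 10.3% (4.53 to 19.2) against 6.85%.

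Among cell-cycle genes, the rule chose cells of both libraries by the same 7 genes, whose log2 ratios, a description only, ran from -0.73 for Mki67 to 0.34 for Pclaf. Of 18 replication genes that reached 50 CPM in the cycling cells of both libraries, none was 2-fold apart. Of 10 spindle and kinesin genes that did so, 4 were at least 2-fold lower in TIL and none higher. Of all genes that reached 50 CPM in either library, 21.2% were 2-fold apart and 13.1% were lower in TIL. Kif11, the mitotic motor Eg5, stood at 66.9 CPM (TIL) and 159 CPM (IEL). Bub1, a checkpoint kinase, stood at 27.8 and 74.2 CPM, so it reached 50 CPM through IEL alone and the floor fixed its direction. Both fell short of 2-fold without the deepest cells: without cells above the 99th percentile of UMIs of their library, the log2 ratios of Kif11 and Bub1 moved from -1.25 and -1.42 to -0.54 and -0.66. Hist1h1b, a linker histone gene, lay further apart, at 147 CPM (TIL) and 702 CPM (IEL).

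Of 18 glycolysis and hypoxia genes, 10 reached 50 CPM in the cycling cells of both libraries. Of these, 7 lay at least 2-fold above IEL in TIL and none 2-fold below. Of all genes that reached 50 CPM in either library, a wider set, 8.17% lay above. Hif1a, the hypoxia factor, was at 570.2 against 63.9 CPM, Pgam1, phosphoglycerate mutase, at 378 against 82.2 CPM, and Pkm, pyruvate kinase, at 1043 against 391 CPM. The other T cells lay the same way. There 8 of 13 glycolysis and hypoxia genes that reached 50 CPM in either library were higher in TIL, beside 13.2% of all genes. Of 17 immediate early and heat shock genes, 11 reached 50 CPM in the cycling cells of both libraries. Of these, 6 lay at least 2-fold below IEL in TIL and none 2-fold above. Of all genes that reached 50 CPM in either library, 13.1% lay below. Hspa1a, an inducible HSP70, stood at 2.01 CPM (TIL) and 561 CPM (IEL), and Fos at 93.03 and 1159 CPM. Hspa1a reached 50 CPM through IEL alone, so the floor fixed its direction. In the other T cells, 8 of 14 such genes that reached 50 CPM in either library were lower in TIL, beside 12% of all genes. Immediate early and heat shock genes also mark handling of tissue, and their part in the differences was not tested.

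The 13 Ccl5/Cd8a-type cycling cells of TIL allowed a comparison with the 78 IEL cells within 1 class, though each value rests on few cells. Cd8a, which helped to define the class, stood at 483 CPM (TIL) and 559 CPM (IEL). Of genes that did not, Nkg7 was at 1078 and 1195 CPM (log2 -0.15, -0.35 to 0.05) and Cd7 at 1929 and 1979 CPM (-0.04, -0.19 to 0.11). Trdc, too, was at 725 and 681 CPM (0.09, -0.16 to 0.34), where all cycling cells together differed by 2.31. Other genes stayed apart in the class. Rgs1, a regulator of chemokine signalling, was at 748 and 4935 CPM (-2.72, -2.96 to -2.50), Fos at 41.8 and 1159 CPM (-4.79, -5.92 to -3.86), and Ccl4 at 79.01 and 532 CPM, the last with 52.9% of the TIL UMIs in 1 cell. Pgam1 was higher, at 265 and 82.2 CPM (1.69, 1.20 to 2.16), with a UMI in 11 of 13 cells. Gzmc was at 1492 CPM, but 87.9% of its UMIs were in 1 cell.

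Transcripts of other cell types moved with the library. Of 12 myeloid markers, 12 were detected in TIL and 2 in IEL cycling cells, with a summed level of 762 and 5.87 CPM, against 782 and 7.20 CPM in the other T cells. At least 3 markers stood in 8 of 132 TIL cycling cells (6.06%, 2.65 to 11.6), in 2.09% of other TIL T cells and in none of IEL. These 8 cells held 95.7% of the myeloid UMIs of the TIL cycling cells, and 1 of them 45.6%. Apoe and Lyz2, at 309 and 255 CPM in TIL and 0 in IEL, are 2 of the markers, and without the 8 cells 81.5% of the remaining 124 TIL cycling cells were IL-17-type. Erythroid transcripts were at 64.8 CPM in TIL cycling cells and 2305 CPM in the other T cells, with none in IEL cycling cells. Summed epithelial markers were at 59.5 CPM (IEL) and 120 CPM (TIL) in the cycling cells, and summed B and plasma cell markers at 80.0 and 35.4 CPM. The part of these transcripts in the differences was not tested. Above 30000 UMIs lay 4 IEL (5.13%) and 15 TIL (11.4%) cycling cells, against 0.0444% and 0.181% of other T cells. No doublets were removed, and their part in these cells was not tested.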

How the data were processed

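Gene counts (UMIs per gene and barcode) were deposited by the authors as 1 matrix per library. Per the submitters' processing notes, Cell Ranger 6.1.1 and the mm10 genome were used; how barcodes were called is not given in the sources used here. Raw counts were read with Python 3.11.15, NumPy 2.4.6, SciPy 1.17.1 and pandas 2.3.3 and drawn with Matplotlib 3.10.9. Counts were summed over the cells of a group and divided by the group's total to give CPM. Exact Clopper-Pearson, Poisson and conditional 95% intervals were computed. Total depth was 69414155 UMIs in IEL and 94953893 in TIL. A gene entered a comparison at 50 CPM in either group and was counted from 2-fold, and a group at 0 was set at a floor of 3 UMIs. Shares were repeated with cells thinned to 2000 UMIs. Members and gene lists were chosen with earlier results of these data known. Named genes were the rule, gate, marker and receptor genes, the 15 largest ratios in each direction between libraries and the 10 largest between cycling and other cells (no ribosomal, mitochondrial or receptor segment genes), and up to 5 of each list by size; Blk, Ccl4, Ccne1, Cd7, Foxm1, Gzma, Mcm6, Mybl2, Nkg7, Pcna, Tbx21 and Trdv4 were added after their values were seen. No doublet caller was run. The summing and ratio code was tested on simulated data.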

Additional observations from a re-analysis of the deposited data

Results flagged for a closer look

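Some genes lay on opposite sides in the libraries when cycling T cells were set against other T cells, and the difference was not tested because each group is 1 library. H2-Eb1, a class II antigen presentation gene, had a log2 ratio of 0.51 in IEL and -1.78 in TIL, at 65.3 against 45.8 CPM and 16.5 against 56.9 CPM. Without TIL cells that held at least 3 myeloid markers its TIL ratio was -0.91. Klf2, a factor of lymphocyte migration and quiescence, had ratios of 0.74 and -0.73, at 149 against 89.2 CPM in IEL and 87.8 against 146 CPM in TIL. Pmaip1, the death gene Noxa, had ratios of 0.68 and -0.59, at 64.6 against 40.4 CPM in IEL and 43.9 against 66.1 CPM in TIL. H2-Eb1 and Pmaip1 reached 50 CPM through the cycling cells alone in IEL and through the other T cells alone in TIL. The floor therefore fixed their direction in each library, while Klf2 reached it in both groups of both.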

How the results depend on the processing

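No paired analysis was possible because each group is 1 library. The cycling share, 0.859% of IEL and 1.08% of TIL T cells, moved to 1.16% and 1.49% with 3 of the 7 rule genes, to 0% and 0.524% when Trdc or a γ constant gene and no Trac were required, to 0.523% and 0.798% without cells above the 99th percentile of UMIs, and to 0.288% and 0.378% with thinning before the rule. Under that thinning G2/M led in 42.3% of 26 IEL and 60.9% of 46 TIL cycling cells, against 52.6% and 50% as reported. Under the rule without Trac 0% of the 40 TIL cycling cells were Ccl5/Cd8a-type. The comparison of the libraries could not be made under that rule, since no IEL cell was left. Counts of higher and lower genes in TIL over IEL were 520 and 944 at a floor of 20 CPM, 173 and 226 at 100 CPM, and 1103 and 1787 with no floor. In cycling over other T cells they were 508 and 120 in IEL and 389 and 191 in TIL at 20 CPM. The median of the inhibitory receptors turned from -1.39 to 2.05 at 100 CPM, where fewer genes entered. Some genes were at 0 in IEL cycling cells, so the sign of their ratio comes from the floor of 3 UMIs and shows no reversal. For Cd163l1, cycling over other T cells in IEL with the other cells weighted to the classes, the upper bound was 0.22. Within TIL, cycling over other T cells, signs of myeloid values did turn. The median of the myeloid list, at least 2-fold higher as reported, was -0.67 at 20 CPM and -2.12 as a mean over cells. For Apoe and Lyz2, TIL over IEL, the lower bounds were -0.35 and -0.025 under thinning. Without cells of at least 3 myeloid markers, an alternative chosen after seeing the data, the lower bound of C1qb between libraries was -1.33. Against other TIL T cells, C1qb turned under that alternative from at least 2-fold higher to -0.15. Il1b turned from at least 2-fold lower to 0.13. The cause was not tested. Of the single-gene values between the libraries, 1543 stayed within their 95% counting interval over the alternatives, 211 lay outside it, and 3 were such bounds with a turned sign. The class shares with the rule alone thinned and the phase by class on full counts were also chosen after seeing the data. Depth limits single genes: 0 of 78 cells allow up to 3.85% of cells with a UMI.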
